A study of Rattus norvegicus with 24 samples.

Results

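The transcriptome of the cerebral cortex was compared between the high and the low dose of MK-801 (dizocilpine), on the 4 arrays titled for this region among the 24 of the series. On each array, RNA of rats given the drug was hybridised together with RNA of saline rats, and each dose had 2 arrays of opposite dye. Within a dye orientation, the log2 ratio of treated over saline on the low-dose array was subtracted from that on the high-dose array, and both orientations were then averaged. A positive value therefore means a higher ratio of treated over saline at the high dose. It can arise in the treated channel, in the saline channel or in both. The rats were male Wistar rats injected intraperitoneally with MK-801 at 0.16 mg/kg (high dose), with MK-801 at 0.08 mg/kg (low dose) or with saline, and their brains were taken 40 min later. All titles carry the word Control in front of both the dose and the saline, and the labels do not say what it stands for. The design text counts 9 rats, 3 of them given saline. Their age is listed as 9 weeks with the samples but as 10 weeks in the design text.

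How many rats went into an RNA extract, and whether the arrays of a dye swap held different extracts, is not stated in the labels, so each dose is 1 replicate in the cortex. No test among cortex samples exists for the dose difference, and the SD of both orientations describes the measurement and not the spread between rats. A feature, meaning a gene or an unnamed transcript represented by its brightest probe, was called where both orientations differed by at least 1.5-fold in the same direction. This was asked of the 22388 features, of 35524, whose signal was well above background in both channels of all 4 arrays.

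MK-801 blocks the open channel of the NMDA type of glutamate receptor. In rodents it drives locomotor activity and alters the firing of cortical pyramidal cells and interneurons. Early response genes are transcribed within minutes of a stimulus and without new protein synthesis. Their products include transcription factors such as Fos and Atf3, and feedback regulators such as Dusp1, a phosphatase that switches off MAP kinases. A dissected piece of cortex also carries the pia and arachnoid, the thin meningeal membranes on its surface, whose fibroblasts secrete collagens and small proteoglycans.

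Between 71.2% and 89.7% of the spots in a cortex channel were well above background, and no spot was saturated. The median net signal of a channel ran from 102 to 353 intensity units. All 4 arrays shared a scan day. In the saline channels, the cortical glutamatergic neuron markers exceeded the mean of the other 5 regions by 1.41 log2 units in the cortex (median of 14 genes, 11 higher). The cortical interneuron markers were 1.03 units higher (median of 12, 10 higher), and the medians of both lists were highest in the cortex. Across features, which are not independent replicates, the dose differences of both orientations correlated at r = 0.38, and the median SD of both orientations was 0.07.

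At the high dose 48 features were called higher (0.214% of those measured) and 13 were called lower (0.0581%). Of these, 39 and 5 carry a gene symbol. The 12 named genes with the largest increase were Ogn, Col1a2, Ptgds, Cdh1, Coch, Igf2, Kcnj13, Tnnt2, Haus1, Fmod, Igfbp2 and Col1a1, with means between 1.03 and 1.33. Most of these features were near saline at the high dose and below saline at the low dose. Of the 48, 30 lay at least 1.5-fold below saline on both low-dose arrays (0.17% of all features did), while 44 (91.7%) lay within 1.5-fold of saline on both high-dose arrays, as did 99.5% of all features. Their median over saline was 0.06 at the high dose, against -0.80 at the low dose. The treated channel of these features was 0.83 higher at the high dose (median of log2 levels), and the saline channel differed by 0.04. With the treated channels compared alone, without the saline channel beside them, 259 features were called higher and 24 lower, and these include 26 of the 48 and 10 of the 13.

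**Figure D1:**
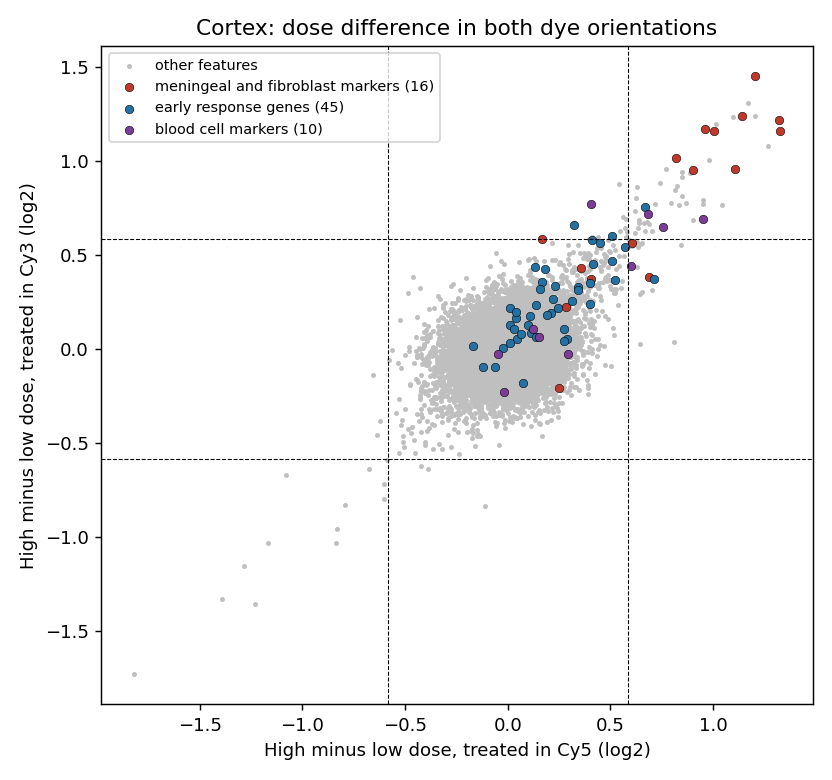
Dose difference of each measured feature in the cortex, with the orientation with treated RNA in Cy5 on the x axis and that with treated RNA in Cy3 on the y axis (both in log2 units, high minus low dose). Dashed lines mark 1.5-fold, and 9 of the 16 meningeal and fibroblast markers lie beyond both lines at the upper right, against 1 of the 45 early response genes and 3 of the 10 blood cell markers.

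Ogn (osteoglycin), a small proteoglycan of collagen-rich tissue, was -0.01 and -0.05 over saline on the high-dose arrays (treated RNA in Cy5 and in Cy3), against -1.22 and -1.50 on the low-dose arrays. Both high-dose arrays were thus at the saline level, both low-dose arrays were below it, and the doses did not overlap. The difference was 1.33 ± 0.18 (mean and SD of both orientations), or 2.51-fold, and its other probe gave 1.13. Col1a2, a chain of type I collagen, was 0.05 and 0.17 at the high dose, against -1.27 and -1.04 at the low dose, a difference of 1.27 ± 0.07, and 0.98 by its other probe. Ptgds, the lipocalin-type prostaglandin D synthase made abundantly by leptomeningeal cells, was 0.02 and 0.00 at the high dose, against -1.31 and -1.16 at the low dose (difference 1.24 ± 0.12). All these genes show the same picture of saline-like values at the high dose and values below saline at the low dose. The brightest probes for these genes are shown because the largest differences rest on them; coordinates are on the rn3 build, as the files list them.
Ogn, chr17:20987215-20987274, minus strand: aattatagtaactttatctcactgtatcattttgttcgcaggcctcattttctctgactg
Col1a2, chr4:29466649-29466708, plus strand: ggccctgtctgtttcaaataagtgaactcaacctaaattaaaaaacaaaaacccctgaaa
Ptgds, chr3:3633310-3633779, minus strand: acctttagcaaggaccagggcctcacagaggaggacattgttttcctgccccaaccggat

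Of the 20 meningeal and fibroblast markers listed, 16 were measured, and 9 were called higher and 0 lower (0.214% and 0.0581% of all features). Their median difference was 0.92, against 0.00 over all features, and 15 of the 16 were above 0 in both orientations, against 28.6% of all features. This list and the others were chosen with earlier results of these data known. Setting a list against all features is therefore a description and not a test. Igf2, a growth factor that the adult rat brain makes mainly in meninges and choroid plexus, was -0.16 and 0.39 at the high dose, against -1.29 and -0.85 at the low dose (difference 1.19 ± 0.07). Fmod (fibromodulin), a collagen-binding proteoglycan, was 0.02 and 0.14 at the high dose, against -0.98 and -1.02 at the low dose (1.08 ± 0.11). Neither gene had a low-dose array that reached its high-dose values. Igfbp2, a binding protein for insulin-like growth factors, differed by 1.07 ± 0.15. Col1a1, the other chain of type I collagen, differed by 1.03 ± 0.11 on its brightest probe but by 0.30 and 0.27 on the dimmer ones. Col3a1, the type III collagen chain, differed by 0.93 ± 0.04. Crabp2, which carries retinoic acid in the cell, differed by 0.92 ± 0.14. The members with the smallest differences were Foxc2, a forkhead factor of mesenchyme, at 0.02 ± 0.32 (0.94 by its dimmer probe), and Lum (lumican), a further collagen-binding proteoglycan, at 0.25 ± 0.04.

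The summed level of the 16 markers in the treated channel was 107340 and 112820 intensity units on the high-dose arrays, against 50374 and 51669 on the low-dose arrays. The saline channels beside them summed to between 105510 and 112820 on all 4 arrays. The low-dose treated channels thus stood apart from the other 6 channels. In whole tissue, fewer cells of a type and less RNA per cell cannot be told apart. The amount of membrane in each piece was not measured, and its part in these differences was not tested.

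**Figure D2:**
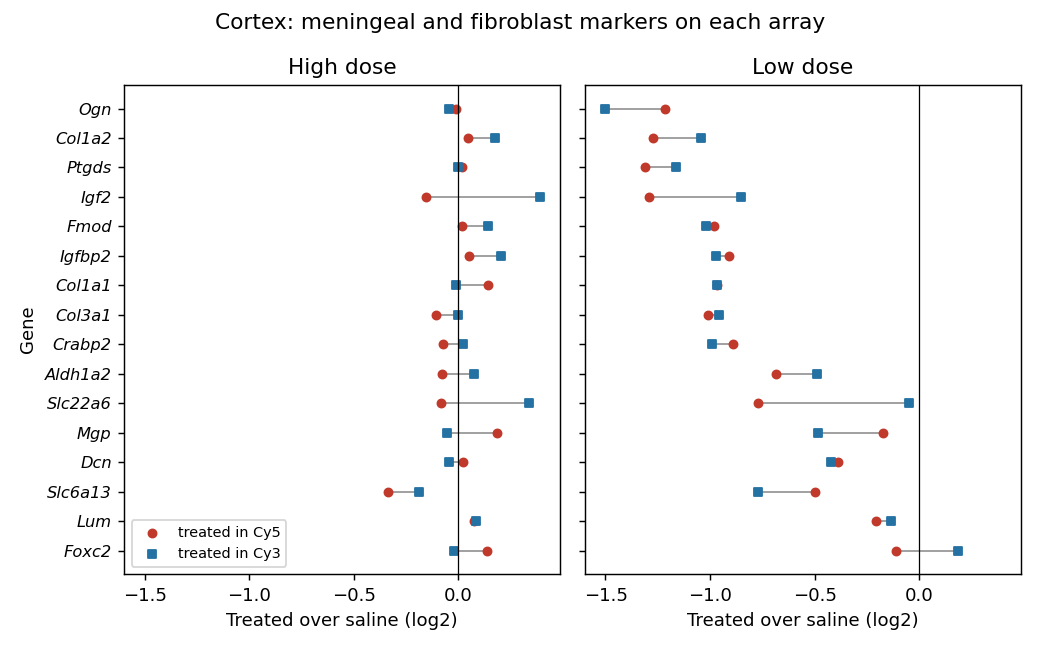
Log2 ratio of treated over saline on each cortex array (x axis) for the 16 meningeal and fibroblast markers (y axis, ordered by dose difference), with the high dose in the left panel and the low dose in the right. At the high dose the points lie around 0 (median 0.06), and at the low dose 15 of the 16 genes have both points below 0 (median -0.94).

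Of the 12 named genes with the largest increase, 5 were not in the meningeal list: Cdh1, Kcnj13, Tnnt2, Coch and Haus1. Cdh1 (E-cadherin), an epithelial adhesion protein, was 0.14 and -0.04 at the high dose, against -1.03 and -1.35 at the low dose (difference 1.24 ± 0.10). Kcnj13, an inward rectifier potassium channel of the choroid plexus, was 0.12 and -0.05 at the high dose, against -1.15 and -1.13 at the low dose (1.17 ± 0.13). In both cases the ratios over saline did not overlap between doses. For Kcnj13 with treated RNA in Cy3, the treated log2 level itself was 7.43 on the high-dose array, against 7.58 on the low-dose array. The saline levels beside them were 7.48 and 8.71, so this orientation's difference lay in the saline channel. With treated RNA in Cy5 the treated levels of Kcnj13 were 8.96 and 7.25. Tnnt2, a troponin of the contractile apparatus of heart muscle, differed by 1.17 ± 0.10. Of the 6 choroid plexus markers measured, Kcnj13 alone was called higher (0.214% of all features) and none lower, and the list's median was 0.22. Aqp1, the water channel of that epithelium, was second at 0.46 ± 0.04. Clic6, a chloride channel family member, was last at -0.04 ± 0.20, followed upward by Enpp2 (autotaxin) at 0.05 ± 0.09. Ttr (transthyretin), the most abundant product of the plexus and chosen here after its values were seen, was 0.15 and 0.09 at the high dose, against -0.29 and -0.24 at the low dose.

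Coch (cochlin), a secreted matrix protein best known from the inner ear, was -0.16 and -0.05 at the high dose, against -1.37 and -1.29 at the low dose. The difference was 1.22 ± 0.03 on its brightest probe, but its other probe, also well above background on all 4 arrays, gave -0.02. On the brightest probe with treated RNA in Cy5, the treated log2 level was 8.72 for the high dose, against 8.55 for the low. The saline levels beside them were 8.88 and 9.91. With treated RNA in Cy3 the treated levels were 9.77 and 8.84. Haus1, a subunit of the augmin complex of the mitotic spindle, was 0.55 and 0.51 at the high dose, against -0.46 and -0.69 at the low dose. Its brightest probe gave a difference of 1.11 ± 0.13 and its other probe -0.41. P3h3, a collagen prolyl 3-hydroxylase and the named gene with the largest decrease, was -0.61 and -0.91 at the high dose, against 0.56 and 0.13 at the low dose. That difference was -1.10 ± 0.10, while the other probe gave 0.05. This other probe was dimmer (mean log2 brightness 6.93, against 11.91), and its treated channel was well above background on 3 of the 4 arrays. For these 3 genes the call therefore rests on 1 probe and is not made for the gene, so both probes of each are given.
Coch, brightest probe: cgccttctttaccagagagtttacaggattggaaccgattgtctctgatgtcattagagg
Coch, other probe: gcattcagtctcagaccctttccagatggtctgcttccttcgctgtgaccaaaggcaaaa
Haus1, brightest probe: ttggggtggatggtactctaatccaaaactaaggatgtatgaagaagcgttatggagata
Haus1, other probe: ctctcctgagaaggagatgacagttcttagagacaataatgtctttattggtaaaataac
P3h3, brightest probe: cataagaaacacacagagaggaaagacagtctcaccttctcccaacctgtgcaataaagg
P3h3, other probe: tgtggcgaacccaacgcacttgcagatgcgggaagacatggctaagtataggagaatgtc

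The other named decreases were few. Galnt16, which attaches the first sugar of mucin-type O-glycans, was -1.74 and -1.86 over saline at the high dose, against -0.91 and -0.91 at the low dose (difference -0.89 ± 0.09). It was thus below saline at both doses and further below at the high dose. Pyroxd2, a mitochondrial oxidoreductase, differed by -0.70 ± 0.14. Apobec1, a cytidine deaminase that edits apolipoprotein B mRNA, was -0.57 and -0.63 at the high dose, against 0.02 and -0.05 at the low dose (-0.59 ± 0.00). The feature with the largest decrease, LOC685106, a provisional locus named here after its values were seen, was -0.03 and -0.16 at the high dose, against 1.79 and 1.57 at the low dose. It differed by -1.78 ± 0.06.

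These decreases were present outside the cortex as well. All 13 features called lower were also below 0 in each other region where both channels measured them: 12 of 12 in the hypothalamus, 12 of 12 in the ventral striatum, 11 of 11 in the amygdala, 10 of 10 in the midbrain and 8 of 8 in the hippocampus. Of all features measured there, between 42.0% and 52.8% were above 0. LOC685106 differed by -1.78 in the cortex, and by -2.30 to -1.89 in the other 5 regions. Galnt16 differed by -0.89 in the cortex, and by -1.55 to -1.19 elsewhere. The brightest probe of Haus1 differed by 1.11 in the cortex, and by 0.81 to 1.05 elsewhere. As the 6 regions were dissected from the same brains, these values are not independent of each other.

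Of 50 early response genes listed, 45 were measured, and they stood on both sides of saline. At the high dose 30 were above saline on both arrays and 7 below on both, against 22 above and 11 below at the low one. Atf3 alone was called higher and none lower (0.214% and 0.0581% of all features). In both orientations 40 of the 45 were above 0 (88.9%, against 28.6% of all features), and their median difference was 0.20. The list's median over saline was 0.28 at the high dose, against 0.10 at the low dose. At least 1.5-fold above saline on both arrays were 14 of the 45 at the high dose (0.121% of all features) and 10 of the 45 at the low one (0.0983% of all features). Of the genes described next, Atf3, Apold1, Homer1 and Ptgs2 were named by rule, and the others were chosen after their values were seen.

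Atf3, a stress-inducible transcription factor, was 3.02 and 2.73 over saline at the high dose, against 2.35 and 1.97 at the low dose (difference 0.71 ± 0.06, or 1.64-fold). Apold1, an endothelial early response gene, was 3.29 and 2.88 at the high dose, against 2.72 and 2.34 at the low dose (0.56 ± 0.02). Ccn1, a secreted matrix-associated protein and the gene furthest above saline in the list, was 4.01 and 4.32 at the high dose, against 3.56 and 3.76 at the low dose (0.51 ± 0.08). A dimmer Ccn1 probe gave 0.06 and 0.50 (0.28 ± 0.32), so on that probe the orientation with treated RNA in Cy5 showed almost no dose difference. On their brightest probes all 3 genes were far above saline at both doses, and the ratios over saline did not overlap between doses. The treated log2 level of Atf3 in Cy5 was 11.04 on the high-dose array, against 11.18 on the low-dose array. In Cy3 it was 12.02, against 10.73. Fos, a subunit of the AP-1 transcription factor, was 0.72 and 1.08 at the high dose, against 0.01 and 0.71 at the low dose (0.54 ± 0.24). Here the orientations disagreed at the low dose, where the array with treated RNA in Cy5 was at the saline level. Sik1, a salt-inducible kinase that restrains CREB coactivators, was 0.95 and 1.30 at the high dose, against 0.44 and 0.70 at the low dose (0.56 ± 0.07).

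Dusp1 was 1.44 and 1.48 at the high dose, against 0.91 and 1.11 at the low dose (0.45 ± 0.11). Klf4, a zinc finger factor of endothelium and epithelium, was 1.97 and 1.60 at the high dose, against 1.56 and 1.02 at the low dose (0.49 ± 0.12). Btg2, an antiproliferative cofactor, was 1.90 and 2.25 at the high dose, against 1.77 and 1.81 at the low dose (0.29 ± 0.22). For all 3 genes every array was above saline, and within each dye orientation the ratio over saline was higher at the high dose. Other members lay near saline at both doses. Arc, a postsynaptic protein, was 0.16 and 0.39 at the high dose, against -0.05 and 0.20 at the low dose (0.20 ± 0.01). Egr1, a zinc finger factor, was 0.02 and -0.12 at the high dose, against -0.09 and -0.21 at the low dose (0.10 ± 0.02). The smallest values of the list were -0.11 ± 0.02 for Homer1, a postsynaptic scaffold (0.01 by its other probe), and -0.08 ± 0.03 for Ptgs2, the inducible cyclooxygenase.

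**Figure D3:**
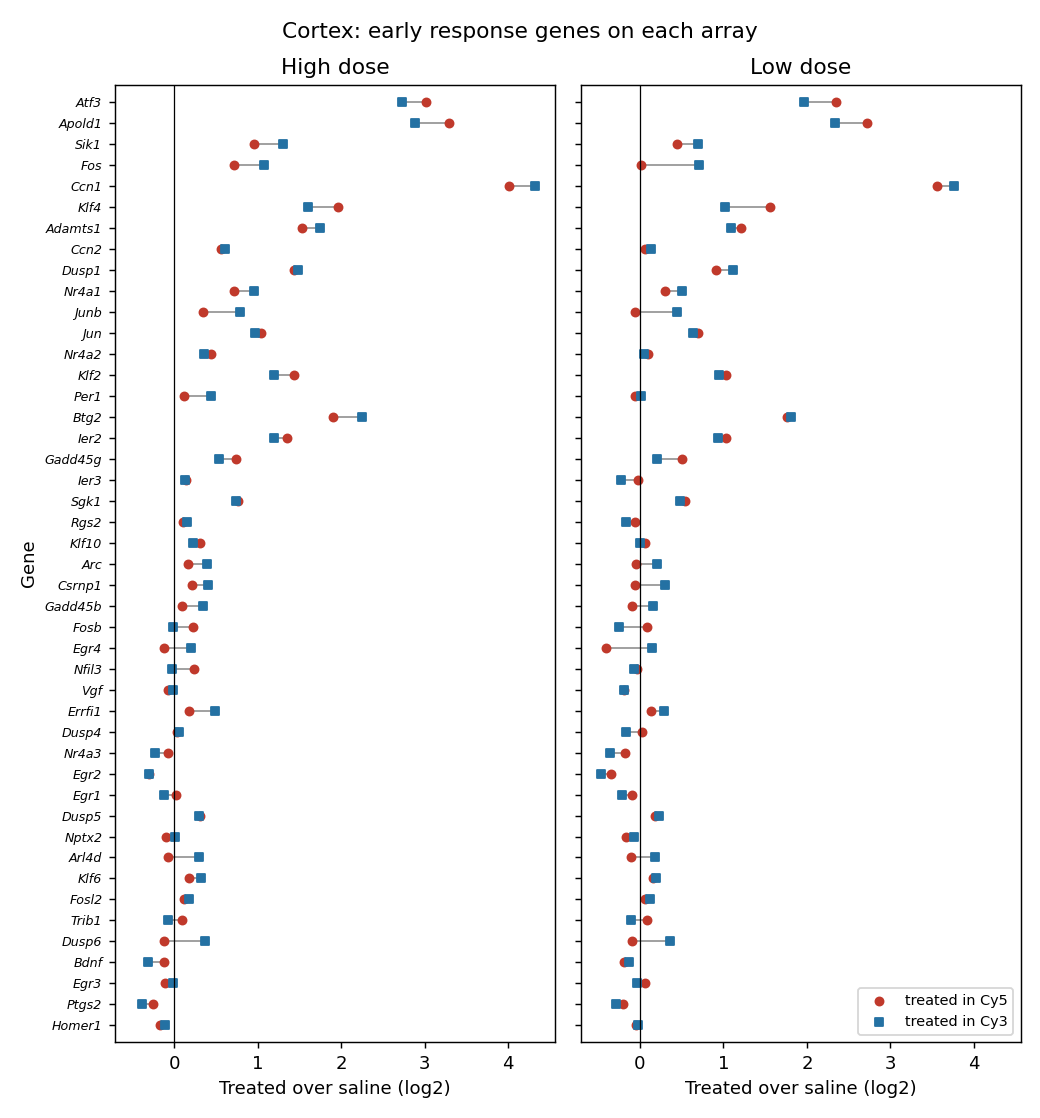
Log2 ratio of treated over saline on each cortex array (x axis) for the 45 early response genes (y axis, ordered by dose difference), high dose in the left panel and low dose in the right. Ccn1, Apold1 and Atf3 lie furthest to the right at both doses, between 2.73 and 4.32 at the high dose, against 1.97 to 3.76 at the low one, while most of the others lie within 1 log2 unit of saline.

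Promoters were read for motifs because most of this list was above 0 in both orientations. RefSeq sequences of the GRCr8 build, from 250 bases before to 50 bases after each gene's start, were found for 33 of the 45 genes. The cAMP response element TGACGTCA, which CREB and ATF proteins bind, occurred in 5 of the 33 (15.2%) and in 1.91% of all 27457 promoters. The CArG box, bound by serum response factor, occurred in 4 of the 33 (12.1%) and in 1.64% of all promoters. The AP-1 site TGANTCA occurred in 0 of the 33 and in 7.33% of all promoters. Both strands were searched, and a match describes the sequence and not a binding event. No promoter was found for Atf3 or Fos in this table, and those of Apold1, Sik1 and Ccn1 held none of the 3 motifs. Dusp1 and Btg2 hold a cAMP response element and Egr1 a pair of CArG boxes (motifs in capitals). Egr1, which holds no exact match to TGACGTCA, is shown as a gene with CArG boxes and a difference of 0.10. Variants of the cAMP response element were not searched. Of the genes with a cAMP response element, Dusp1 differed by 0.45, Btg2 by 0.29 and Ier2 by 0.28. Vgf differed by 0.14 and Arl4d by 0.07. Whether the motifs bear on the dose difference was not tested.
Dusp1, GRCr8 chr10:17184603-17184902, plus strand: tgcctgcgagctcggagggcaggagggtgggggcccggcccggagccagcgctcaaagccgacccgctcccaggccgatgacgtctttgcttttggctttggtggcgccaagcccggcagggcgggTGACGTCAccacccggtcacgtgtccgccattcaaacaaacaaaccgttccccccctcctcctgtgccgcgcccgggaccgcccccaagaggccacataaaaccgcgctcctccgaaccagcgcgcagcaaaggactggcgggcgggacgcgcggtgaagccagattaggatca
Btg2, GRCr8 chr13:48087641-48087940, minus strand: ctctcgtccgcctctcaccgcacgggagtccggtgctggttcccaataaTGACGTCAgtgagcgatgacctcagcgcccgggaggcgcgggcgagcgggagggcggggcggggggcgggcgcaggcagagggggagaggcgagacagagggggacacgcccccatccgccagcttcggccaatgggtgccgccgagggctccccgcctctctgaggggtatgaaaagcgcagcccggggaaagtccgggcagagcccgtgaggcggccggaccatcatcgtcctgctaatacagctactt
Egr1, GRCr8 chr18:26736828-26737127, plus strand: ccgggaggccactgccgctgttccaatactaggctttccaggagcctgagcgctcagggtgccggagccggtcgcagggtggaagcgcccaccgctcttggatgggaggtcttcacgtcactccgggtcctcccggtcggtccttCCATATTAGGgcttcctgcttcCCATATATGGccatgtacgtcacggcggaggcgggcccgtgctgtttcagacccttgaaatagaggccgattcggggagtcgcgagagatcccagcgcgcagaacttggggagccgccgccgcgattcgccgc

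Of the 13 heat shock genes measured, Hspa1a alone was called higher (0.214% of all features) and none lower. Hspa1a, the stress-inducible Hsp70, was 0.79 and 0.79 at the high dose, against 0.16 and 0.10 at the low dose (difference 0.66 ± 0.04, and 0.34 by its other probe). Hspb1, the small heat shock protein Hsp27, was second at 0.52 ± 0.03. Hspe1, a mitochondrial chaperonin, and Hsp90ab1, the constitutive Hsp90, were lowest at -0.05 ± 0.03 and -0.03 ± 0.15. The list's median was 0.05. The 16 glucocorticoid-responsive genes had a median of 0.14, with 13 above 0 in both orientations (28.6% of all features) and none called. Sult1a1, a sulfotransferase, and Per1, a clock gene with a glucocorticoid response element, led that list at 0.33 ± 0.00 and 0.30 ± 0.17. Nfkbia, the inhibitor of NF-kappaB, and Zbtb16, a zinc finger repressor, closed it at -0.07 ± 0.02 and -0.05 ± 0.13. The 13 MAP kinase feedback regulators, which include Dusp1, had a median of -0.01 and none called.

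Of 10 blood cell markers measured, 3 were called higher at the high dose, against 0.214% of all features. These were the globin chains Hbb-b1, Hbb and Hba-a3. The list's median was 0.33, with 7 above 0 and 2 below 0 in both orientations, against 28.6% and 27.6% of all features. Hbb-b1 was 0.60 and 0.16 over saline at the high dose, against -0.35 and -0.54 at the low dose (difference 0.82 ± 0.18). Hba-a3 was 0.58 and 0.20 at the high dose, against -0.18 and -0.45 at the low dose (0.70 ± 0.08). The globin genes are near-identical copies, so their probes may not tell them apart. Gp9, a platelet glycoprotein, and S100a8, a neutrophil calcium-binding protein, were at -0.04 ± 0.01 and -0.12 ± 0.15. In the treated channels the list's summed level was 211640 and 174150 intensity units at the high dose, against 82495 and 92564 at the low. The saline channels beside them summed to 140940 and 154220 at the high dose, against 96301 and 129400 at the low. The saline sums were thus also larger on the high-dose arrays. The part of residual blood in the other differences was not tested. The Hbb difference was 0.70 in the cortex, and between 0.62 and 1.23 in the other 5 regions.

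Genes of antigen presentation and immune signalling differed in sign. Cd74, the invariant chain of class II histocompatibility molecules, was 0.05 and 0.15 at the high dose, against -0.80 and -0.67 at the low dose (difference 0.83 ± 0.02). RT1-Da, a class II alpha chain, differed by 0.84 ± 0.03 on its brightest probe and by 0.11 on a dimmer one. Both were chosen after their values were seen. None of the 14 class I genes measured was called (median 0.04), and RT1-CE3 was highest at 0.45 ± 0.01. The 13 interferon-stimulated genes had a median of -0.10, with 10 below 0 in both orientations, against 27.6% of all features, and none called. Irf7, the interferon regulatory factor that amplifies type I interferon, was -0.50 and -0.79 at the high dose, against 0.02 and -0.29 at the low dose (-0.50 ± 0.01). Over 11 of these genes measured in every region, the median was -0.12 in the cortex and between -0.26 and -0.14 in the other 5. The 8 cytokine and chemokine genes measured had a median of 0.14 with none called, and Socs3, a feedback inhibitor of cytokine receptors, was highest at 0.24 ± 0.01. The 15 microglia markers had a median of -0.07, led downward by P2ry12, the purinergic receptor of resting microglia, at -0.27 ± 0.01.

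The neural lists held no called gene, where 0.214% of all features were called higher and 0.0581% lower. At these shares, lists this short would mostly hold no call, and the same goes for the lists above without one. None of the glutamate receptor, GABA signalling, interneuron, glutamatergic neuron, oligodendrocyte, astrocyte, endothelial, striatal, hippocampal, thalamic or clock genes was called, and the medians of these lists lay between -0.05 and 0.07. Among 19 glutamate receptor genes, Grik5, a kainate receptor subunit, was highest at 0.09 ± 0.01, and Grm2, a metabotropic receptor, lowest at -0.18 ± 0.10. Pvalb, the calcium buffer of fast-spiking interneurons and chosen after its value was seen, was at -0.06 ± 0.02. Sox9, a transcription factor of astrocytes, was -0.59 and -0.37 at the high dose, against -0.32 and -0.05 at the low dose (-0.30 ± 0.03), while 3 dimmer Sox9 probes gave -0.12 to -0.06. In the endothelial and mural list, Tagln, an actin-binding protein of smooth muscle, was highest at 0.43 ± 0.08. Sox18, an endothelial transcription factor, was lowest and below saline on every array: -0.88 and -0.85 at the high dose, against -0.48 and -0.67 at the low dose (-0.29 ± 0.16).

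Some probes gave only a bound, because they were well above background on both arrays of 1 dose and on neither array of the other. Well above background only at the high dose were 136 features, 13 of them with a bound of at least 1.5-fold, and only at the low dose 83, with 0 such bounds. The bound sets the mean treated level at the bright dose against that at the dim dose. Dim-dose levels under the lowest signal well above background were raised to that signal. Where the dim-dose levels lay above it, the value is the observed difference. The saline channels do not enter, so levels of different arrays are compared. Sycp3l2, a relative of the synaptonemal complex protein Sycp3, was at least 2.86-fold higher at the high dose. OR6c8, an olfactory receptor gene, was at least 1.64-fold higher and Btnl8, a butyrophilin-like gene, at least 1.61-fold. For Ugt2b7, a glucuronosyltransferase, the observed difference was 1.59-fold. At the low dose, Prss45, a serine protease gene, was at least 1.36-fold higher and B3gnt3, a glycosyltransferase gene, at least 1.33-fold.

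The dose difference of the cortex was then set against that of the other 5 regions, hippocampus, amygdala, ventral striatum, hypothalamus and midbrain, with 1 value per region. In limma, 3 of 15552 features had a larger dose difference in the cortex (0.0193%, Benjamini-Hochberg adjusted p under 0.05) and 0 had a smaller one. At an unadjusted p under 0.05 there were 331 larger and 355 smaller. The 2 named genes were Coch and Slc13a3, and the third was the transcript AW144471. Coch differed by 1.22 in the cortex, against a mean of 0.05 ± 0.14 in the others (SD of 5 regions), so the cortex stood 1.17 ± 0.12 higher (SE, limma adjusted p = 0.00412). Slc13a3, a sodium-coupled dicarboxylate transporter, differed by 0.87 in the cortex, against -0.10 ± 0.15 in the others (0.97 ± 0.12, limma adjusted p = 0.0227). AW144471 differed by 0.86 in the cortex, against -0.07 ± 0.09 in the others (0.93 ± 0.10, limma adjusted p = 0.00412). For each of the 3, the cortex value was above that of every other region.

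These calls rest on a single cortex value that is assumed to vary like the others. No feature passed with scan day as a block, without the arrays carrying treated RNA in Cy5, with median centring, or from the processed signals or the deposited table, and 35 were higher in the cortex without the midbrain. Ptgds differed by 1.24 in the cortex, and by 0.40 in the midbrain and -0.33 to 0.09 in the other 4, which did not pass (limma adjusted p = 0.0925).

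The midbrain shared the most called features with the cortex. Under the same 1.5-fold rule, 46 features (0.244%) were higher at the high dose in the midbrain, and 19 of them were among the 48 of the cortex (39.6% of the cortex features and 41.3% of the midbrain features, with 42 of the 48 measured there). The amygdala, with 39 higher (0.213%), shared 4, or 8.33% of the cortex features and 10.3% of its own. The ventral striatum shared 6 of its 13, or 12.5% of the cortex features and 46.2% of its own. The hippocampus shared 4 of its 8, and the hypothalamus 2 of its 11. As a share of a region's own higher features, the ventral striatum and the hippocampus thus lay above the midbrain. Over the 10 meningeal markers measured in every region, the median dose difference was 0.92 in the cortex, 0.69 in the midbrain, 0.09 in the amygdala, -0.03 in the hippocampus, -0.31 in the hypothalamus and -0.09 in the ventral striatum. Col1a2 differed by 1.27 in the cortex and by 1.36 in the midbrain, but by -0.53 in the hypothalamus. Of the early response genes, Atf3 and Ccn1 ran otherwise. Atf3 differed by 0.71 in the cortex, against 0.25 in the midbrain and 0.94 to 1.79 in the other 4 regions. Ccn1 differed by 0.51 in the cortex, against 0.69 to 1.91 in the other 5. Neither passed the limma test of the cortex against the other regions. Over 28 early response genes the median was highest in the cortex, at 0.27, and lay between 0.10 and 0.20 in the others.

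**Figure D4:**
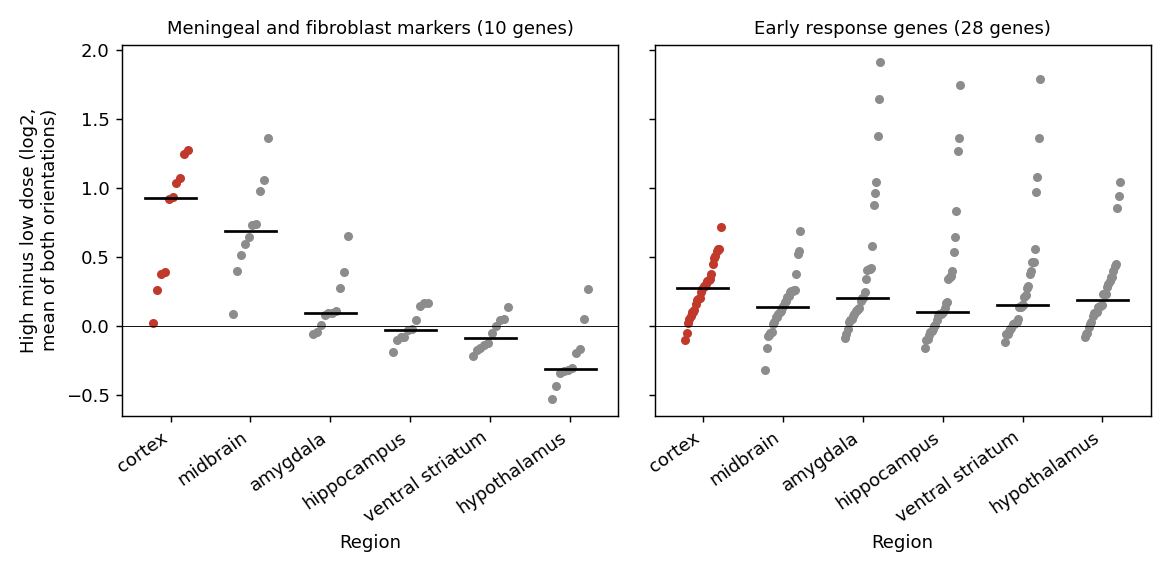
High minus low dose difference (y axis, log2 units, mean of both orientations) in each of the 6 regions (x axis) for meningeal and fibroblast markers (left) and early response genes (right) measured in every region. Each point is a gene and the bar is the median, with the cortex in red: the meningeal median is 0.92 in the cortex and 0.69 in the midbrain, while the 28 early response genes have medians of 0.27 in the cortex and 0.10 to 0.20 elsewhere.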

How the data were processed

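Spot intensity was read from the deposited scanner output as mean signals and local background medians of both channels, made with Agilent Feature Extraction 9.5.3.1 per the submitters' processing notes. Processed signals, with background taken off and dyes balanced by the scanner software per the file headers, stand in the same files. The authors' deposited value table holds log10 of treated over saline, and 100% of its values lay within 0.01 of that ratio from the processed signals; column medians of the cortex arrays were -0.01 to 0.01, so no further centring was seen. Whether RNA of several rats was pooled is not stated.

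In limma 3.58.1 (R 4.3.3), normexp with an offset of 50 removed background, and a loess fit per array that gave control spots no weight normalised the log2 ratios computed from the deposited signals. Outlier spots were left out, and arrays with treated RNA in Cy3 were turned. Spots of a probe were averaged and a gene took its brightest probe. Names came from files or from a RefSeq table of GRCr8, which named 12697 of 43379 spots by systematic accession, 126 by another accession, 5732 by symbol and 3733 by synonym. Of 35524 features, 15542 have a symbol. Summed levels are per-channel values after quantile normalisation of mean brightness between arrays.

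The test across regions needed, besides the cortex filter, a signal well above background in at least 1 channel of every other array, and adjusted p-values by Benjamini-Hochberg in limma over 15552 features. On simulated data for that test, 59% of features shifted by 0.5 and 95% of those shifted by 1 were recovered, with 8 false calls among unshifted features. The simulation drew regions independently and gave the cortex the spread of the other regions. A single cortex value cannot check this, so the shares may not hold for the real data. P-values measure the spread between regions, which come from the same rats, and may be technical. The number of arrays limits the precision. Named genes were the 12 largest increases and decreases with a symbol, called members and the 2 largest and 2 smallest of each of 22 lists, up to 6 genes of the test each way and up to 4 bounds each way; others are marked, and 1 gene that the rule named is not reported here. Gene lists and rules were chosen with earlier results of these data known. Alternatives were other background corrections, centring, the deposited table, filters, fold rules, a dye orientation or region left out, scan day as a block and, chosen after seeing the data, the treated channels alone.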

Additional observations from a re-analysis of the deposited data

Results flagged for a closer look

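The dose difference (high minus low) of 3 features differed between the cortex and the other 5 regions by the limma test of the difference itself. The cortex gave 1 value, so the test has no spread of its own for the cortex, and none of the 3 passed with scan day as a block. Coch was 1.17 log2 units higher in the cortex than in the mean of the other regions, AW144471 0.93 and Slc13a3 0.97. In the cortex all 3 were close to saline at the high dose and below saline at the low dose. The dimmer probe of Coch did not show the dose difference in the cortex (-0.02), and with the mean over probes the value for Coch was 0.62. AW144471 is a transcript without a gene symbol in the files. Over the alternatives tried, Coch passed in 8 of 15, AW144471 in 9 of 14 and Slc13a3 in 5 of 15.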

How the results depend on the processing

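The 48 features higher and 13 lower at the high dose in the cortex became 97 and 21 with the scanner software's processed signals, 98 and 23 with the deposited table, 10 and 5 when both orientations had to reach 2-fold, and 259 and 24 with the treated channels alone, which set the level of an array against that of another array. From a single dye orientation the counts were 62 to 66 higher and 16 to 16 lower. All 48 and all 13 remained called with the processed signals, the deposited table and offset 16. Ecrg4, called higher, reversed to -0.14 with the treated channels alone. The median of the meningeal and fibroblast markers lay between 0.75 and 1.03, and that of the early response genes between 0.19 and 0.24, under all alternatives tried. Across regions, the 3 features higher in the cortex became 0 with processed signals, median centring, the deposited table or scan day as a block, 6 with the cortex filter alone, 35 without the midbrain, and 0 to 1 from a single dye orientation; the cause was not tested. Adjusted p ranged from 9e-05 to 0.683 for Coch and from 0.000287 to 0.535 for Slc13a3. The lower count was 0 in every alternative. Dim probes limit what can be seen, since 22388 of 35524 features were measured in the cortex.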

Other observations

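Among features called higher at the high dose in the cortex, 3 were at least 1.5-fold above saline on both high-dose arrays: Atf3, Hspa1a and XM_344384, a transcript without a symbol. XM_344384 was 0.98 and 0.95 over saline at the high dose, against 0.30 and 0.28 at the low dose. Gjb2 (connexin 26), a gap junction protein of the leptomeninges, was -0.25 and 0.09 at the high dose, against -1.23 and -0.91 at the low dose. Vim (vimentin), the intermediate filament of fibroblasts and endothelium, was 0.20 and 0.08 at the high dose, against -0.50 and -0.55 at the low dose. Ccl19, a chemokine that attracts T cells and dendritic cells, was 0.49 and -0.13 at the high dose, against -0.30 and -0.90 at the low dose. Its ratios differed between dyes at both doses, and its dose difference was 0.79 with treated RNA in Cy5 and 0.78 with treated RNA in Cy3. These genes were chosen after their values were seen.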
